A study of Mus musculus with 13 samples.

Results

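The 10 genes described here are the ligands, receptors and binding proteins of the insulin-like growth factor (IGF) axis listed here: the ligands Igf1 and Igf2, the receptors Igf1r and Igf2r, and the binding proteins Igfbp2, Igfbp3, Igfbp4, Igfbp5, Igfbp6 and Igfbp7. They were taken by symbol, without regard to their values, from 25655 genes measured in 13 primary cultures of neonatal mouse dermal fibroblasts, and all 10 passed the filter on low values. The cultures came from the skin of untreated newborn mice, either wild type (WT) or homozygous for the G234D change in Fbn1, the gene of the microfibril protein fibrillin-1 (Fbn1 G234D/G234D, written G234D below). Set 1 comprised W1 to W4 from 4 WT mice and M1 to M4 from 4 G234D mice. Set 2, collected in addition, comprised W5 and W6 from 2 WT mice and M5 to M7 from 3 G234D mice. The animal numbers of set 1 fell into an earlier group (W1, W2, M1 and M2) and a later group (W3, W4, M3 and M4), with W1 numbered well below the other earlier animals. The labels name no litter, culture day or sex. The series asked whether the mutation changes matrix gene expression within fibroblasts themselves.

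IGF1 and IGF2 are secreted peptides that act through the tyrosine kinase receptor encoded by Igf1r, which signals to the PI3K-AKT and RAS-ERK pathways and promotes growth and survival. The product of Igf2r, also called the cation-independent mannose 6-phosphate receptor, carries IGF2 and lysosomal enzymes to lysosomes and does not signal growth. The binding proteins hold the ligands in the extracellular space, where they can withhold or deliver them, and proteases such as PAPP-A release the ligand again. Dermal fibroblasts are a source of IGFs and binding proteins for the epidermis. Igf2 and Igf2r are imprinted genes with opposite parental expression.

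Values were TPM, transcript abundances scaled to gene length and to the sum of each library, so levels can be compared between genes. The files carry no read totals and the depth behind each value is unknown. The cultures expressed all 12 fibroblast markers at 1 TPM or more, with a summed level of 28449 to 40554 TPM that Col1a1 led at 9405 to 14553 TPM. Pdgfra, a receptor gene of dermal fibroblasts, stood at 37.8 and 48.7 TPM in M1 and M2 and at 83.3 to 143 TPM elsewhere. The sum of the 12 markers overlapped, at 28449 and 30730 TPM in M1 and M2 and 29782 to 40554 TPM elsewhere. M1 and M2 stood apart from the other libraries in markers of some other cell types. Their 14 skeletal muscle markers summed to 491 and 379 TPM, against 74.7 to 186 TPM in the other 11 libraries. Their 12 Schwann cell and melanocyte markers summed to 142 and 143 TPM, against 25.9 to 51.5 TPM. Their 7 pericyte and smooth muscle markers summed to 283 and 299 TPM, against 160 to 273 TPM. W1 and W2 of the same animal group came next, at 244 and 273 TPM, and 0 of 6 tested were called between the genotypes of that group. The 12 macrophage and leukocyte markers of M1 and M2 summed to 169 and 225 TPM, against 36.7 to 173 TPM, so M1 lay within the range of the others. Myog, a regulator of muscle differentiation, stood at 33.9 and 23.5 TPM in M1 and M2 and at most at 6.79 TPM elsewhere, and Sox10, a neural crest regulator, at 22.4 and 22.6 TPM against at most 6.53 TPM. Markers of keratinocytes summed to at most 10.6 TPM and those of endothelium to at most 11.2 TPM. Fbn1 itself lay between 400 and 600 TPM, and its level does not check the genotype labels, since a changed codon need not change the transcript level. Values without M1 and M2 are given beside several results below, and not beside every result that these libraries move.

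**Figure D1:**
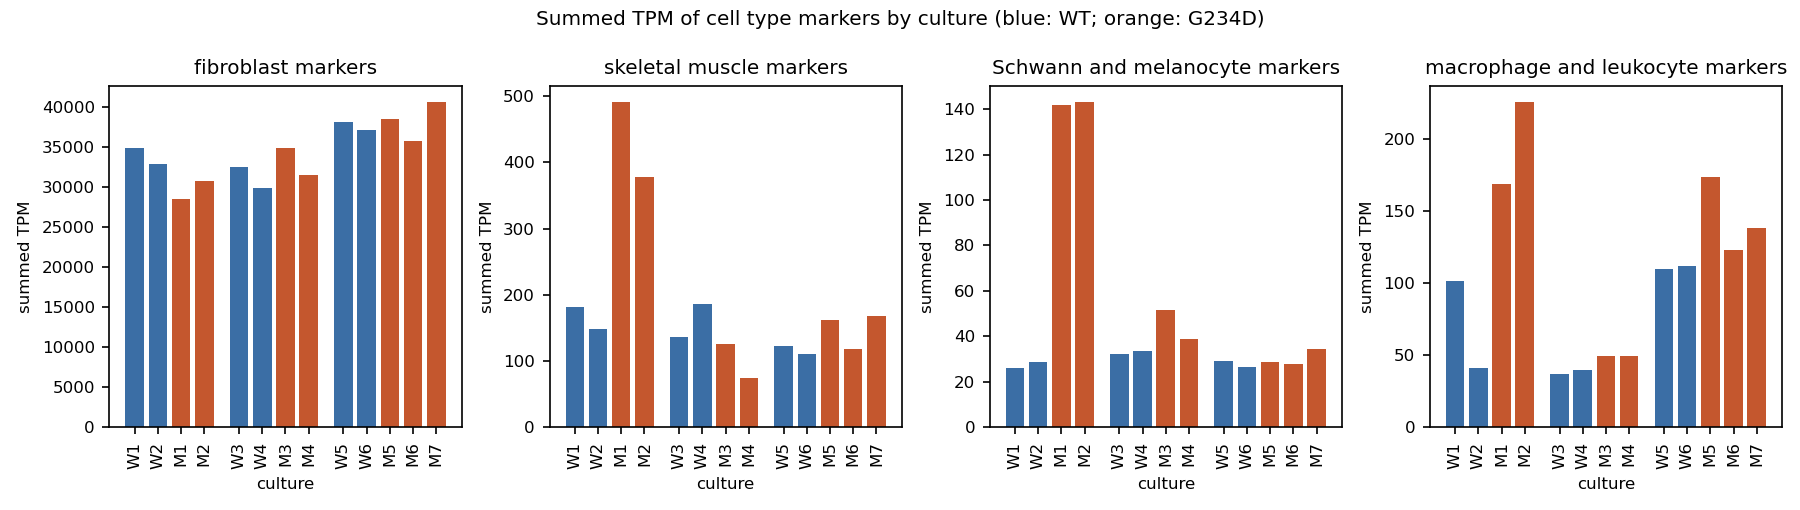
Summed TPM of the markers of 4 cell types (vertical axes) in each of the 13 cultures (horizontal axes), with WT cultures in blue and G234D cultures in orange. M1 and M2 carry the highest skeletal muscle sums (491 and 379 TPM) and Schwann and melanocyte sums (142 and 143 TPM), while fibroblast markers lie between 28449 and 40554 TPM throughout.

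The IGF axis transcripts were dominated by binding proteins. In order of their median over the 13 libraries, Igfbp7 stood first at 1454 TPM, followed by Igfbp5 at 1188 TPM, Igf2r at 216 TPM, Igfbp2 at 138 TPM and Igfbp6 at 107 TPM. Igfbp4 followed at 74.6 TPM, Igf2 at 72.2 TPM, Igfbp3 at 55.5 TPM and Igf1r at 43.2 TPM, and Igf1 came last at 5.79 TPM. The ranges of neighbours in this order overlapped except at 2 places. Igfbp5 was above Igf2r in all 13 libraries without overlap of their ranges, and Igf1r was above Igf1 in the same way. Igfbp7 was above Igfbp5 in 9 of the 13 libraries, so their order was not fixed. Together the 10 genes made up 0.311% to 0.415% of all TPM. Igf1r varied least among the libraries, with a highest value 1.40 times its lowest, and Igfbp4 varied most, with a highest value 4.80 times its lowest.

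**Figure D2:**
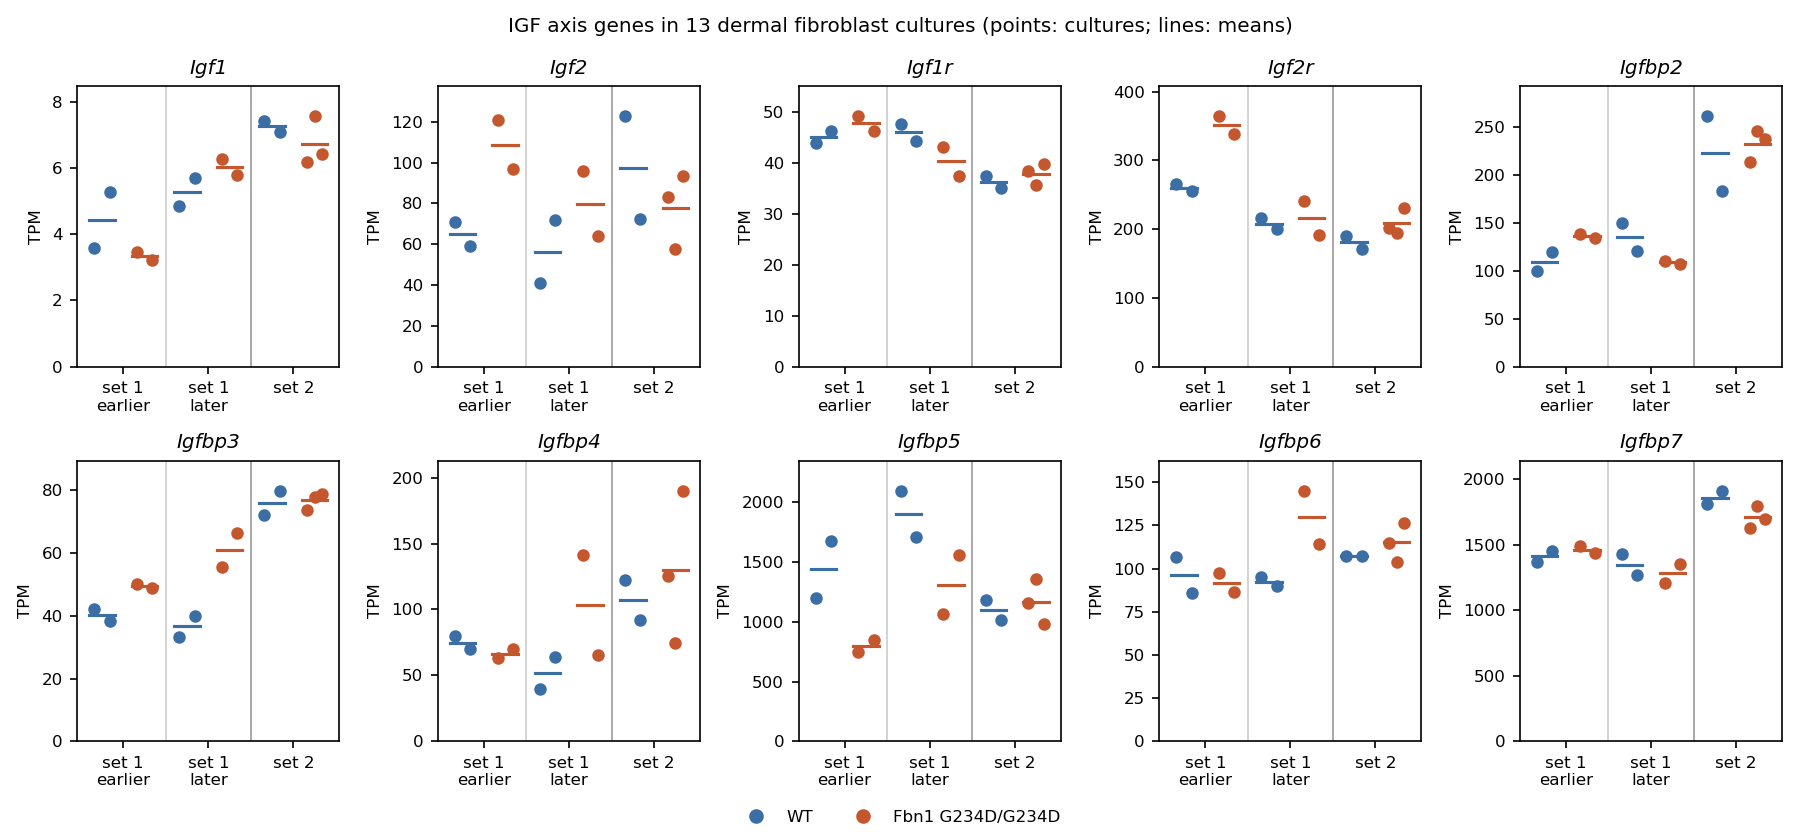
TPM of each of the 10 IGF axis genes (vertical axes from 0, scaled for each gene) in the earlier and later animals of set 1 and in set 2 (horizontal axes), with WT cultures in blue and G234D cultures in orange. Each point is 1 culture and each line the mean of its group; for Igfbp3 the 4 G234D cultures of set 1, at 48.9 to 66.4 TPM, lie above the 4 WT cultures, at 33.4 to 42.1 TPM.

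Igf2, the fetal growth factor of the pair, was the main ligand transcript. Igf2 is listed as ENSMUSG00000048583 at chr7:142650766-142666816 on the minus strand of mm10. In set 1 Igf2 stood at 70.7, 59.2, 41.0 and 71.7 TPM in W1 to W4 and at 121, 96.9, 95.7 and 64.1 TPM in M1 to M4. Of the G234D cultures M1, M2 and M3 were above every WT culture of that set, and M4 lay within the WT range. In set 2 Igf2 stood at 123 and 72.2 TPM in W5 and W6 and at 83.0, 57.5 and 93.4 TPM in M5 to M7. There the highest and the second lowest value were both WT, and the groups overlapped. The difference G234D minus WT on the log2(TPM + 1) scale was 0.63 in set 1 (SE 0.23, limma, adjusted p = 0.732) and −0.30 in set 2 (SE 0.35, adjusted p = 0.899). Without M1 and M2 the difference of set 1 was 0.40, and without W5 the difference of set 2 was 0.08. In bulk libraries fewer cells of a type and less RNA per cell cannot be told apart. Igf2 lies within the span of Gm49394, a gene on the same strand whose level did not pass 0.17 TPM in any library.

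Igf1, the ligand made under growth hormone control in many tissues, was low in these cultures. Igf1 is listed as ENSMUSG00000020053 at chr10:87858265-87937042 on the plus strand. Its level was 3.59, 5.29, 4.84 and 5.71 TPM in W1 to W4 and 3.46, 3.23, 6.28 and 5.79 TPM in M1 to M4. In set 2 its level was 7.43 and 7.10 TPM in W5 and W6 and 6.17, 7.57 and 6.42 TPM in M5 to M7. M1 and M2 were the lowest of all 13 libraries and M3 and M4 the highest of set 1, so the genotype groups of set 1 overlapped. The genotype difference of Igf1 was −0.07 in set 1 (SE 0.20, limma, adjusted p = 0.977) and 0.28 without M1 and M2. TPM of Igf2 exceeded those of Igf1 in every library, by a ratio that ran from 7.60 in M6 to 34.9 in M1.

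Among the receptors, Igf1r was the steadiest gene of the axis. Igf1r is listed as ENSMUSG00000005533 at chr7:67952827-68233668 on the plus strand. It ran from 43.9 to 47.7 TPM in the WT cultures of set 1 and from 37.3 to 49.1 TPM in the G234D cultures, and from 35.1 to 39.7 TPM in set 2. Over both sets its genotype difference was −0.01 (95% interval −0.14 to 0.11, limma), which excludes a change of 1.5-fold in either direction.

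Igf2r, the clearance receptor for IGF2, separated the animal groups of set 1, and separated the genotypes in the earlier animals and in set 2. Igf2r is listed as ENSMUSG00000023830 at chr17:12682406-12769664 on the minus strand. Its level was 266 and 256 TPM in W1 and W2 and 365 and 339 TPM in M1 and M2. In the later animals it was 216 and 201 TPM in W3 and W4 and 241 and 192 TPM in M3 and M4. All 4 earlier libraries were above all 4 later ones, and within set 1 the genotypes separated in the earlier animals alone. With 2 against 2 cultures the genotypes did not overlap for 57.7% of all genes in the earlier animals and 39.7% in the later. In set 2 Igf2r stood at 190 and 172 TPM in W5 and W6 and at 201, 195 and 231 TPM in M5 to M7, with every G234D culture above both WT cultures. The genotype difference was 0.20 in set 2 (SE 0.08, limma, unadjusted p = 0.0298, adjusted p = 0.749) and 0.24 in set 1 (SE 0.20, adjusted p = 0.901). Without M1 and M2 the difference of set 1 turned to −0.11. Over both sets it fell from 0.23 to 0.04 without them.

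Igfbp3 encodes the main carrier of IGFs in serum and a secreted inhibitor of growth in many cells. In the main fits it had the smallest p of the members for genotype over both sets and in set 1. Igfbp3 is listed as ENSMUSG00000020427 at chr11:7206086-7213923 on the minus strand. In set 1 its level was 42.1, 38.2, 33.4 and 39.9 TPM in W1 to W4 and 50.2, 48.9, 55.5 and 66.4 TPM in M1 to M4. Every G234D culture of set 1 was above every WT culture, with M3 and M4 above M1 and M2. In set 2 the level was 72.2 and 79.8 TPM in W5 and W6 and 73.8, 77.8 and 78.7 TPM in M5 to M7. The 3 G234D values of set 2 fell between the 2 WT values, and all 5 were above every library of set 1. The group means of set 1 were 38.4 ± 3.69 TPM in WT and 55.3 ± 7.97 TPM in G234D (SD, n = 4 each), and those of set 2 were 76.0 ± 5.42 TPM (SD, n = 2) and 76.8 ± 2.61 TPM (SD, n = 3).

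Igfbp5, a binding protein that attaches to matrix and is abundant in mesenchymal cells, moved the other way in set 1. Igfbp5 is listed as ENSMUSG00000026185 at chr1:72857932-72874884 on the minus strand. In set 1 its level was 1198, 1681, 2098 and 1710 TPM in W1 to W4 and 750, 850, 1066 and 1559 TPM in M1 to M4. M1, M2 and M3 were below every WT culture of the set, while M4 was above W1. In set 2 the level was 1188 and 1014 TPM in W5 and W6 and 1156, 1361 and 983 TPM in M5 to M7. The highest and the lowest library of set 2 were both G234D, and the groups overlapped. The difference in set 1 was −0.69 (SE 0.25, limma, adjusted p = 0.729), which became −0.35 without M1 and M2, and the difference in set 2 was 0.08 (SE 0.15, adjusted p = 0.940).

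The sequences before the start sites of Igfbp3 and Igfbp5 are shown because these binding proteins carried the opposite differences of set 1. Both windows hold the 250 bases before the RefSeq start (GRCm38.p6), read 5′ to 3′ on the gene's own strand, at chr11:7213924-7214173 for Igfbp3 and chr1:72874866-72875115 for Igfbp5. Capitals mark the E-box letters CANNTG, which read the same on both strands in their fixed positions.
Igfbp3: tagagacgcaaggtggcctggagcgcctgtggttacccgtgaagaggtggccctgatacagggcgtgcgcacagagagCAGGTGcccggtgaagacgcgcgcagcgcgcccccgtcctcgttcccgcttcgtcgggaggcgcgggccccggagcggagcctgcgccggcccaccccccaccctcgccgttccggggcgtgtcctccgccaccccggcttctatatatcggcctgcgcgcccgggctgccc
Igfbp5: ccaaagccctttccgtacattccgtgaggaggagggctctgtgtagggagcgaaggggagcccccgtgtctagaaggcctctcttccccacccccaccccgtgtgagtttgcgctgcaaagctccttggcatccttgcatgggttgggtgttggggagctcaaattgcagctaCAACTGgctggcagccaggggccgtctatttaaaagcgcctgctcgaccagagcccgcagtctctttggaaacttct
Each window held 1 E-box, 172 bases before the start in Igfbp3 and 77 bases before it in Igfbp5, and 66.2% of all 32851 promoter windows of the same length held at least 1. Neither window held the TATAAA letters (12.4% of all windows on either strand), CCAAT (33.8%) or GGGCGG (32.7%), which says only that those letters are not in these windows. The base composition differed, with 73.2% G and C in the Igfbp3 window and 58.8% in the Igfbp5 window, against a median of 52.4% over all windows. A letter match is a description of the sequence, and no binding was measured here.

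Igfbp2, Igfbp4, Igfbp6 and Igfbp7 gave no difference between the genotypes that held in both sets. Igfbp2, a binding protein of fetal tissues that lies tail to tail with Igfbp5 on chromosome 1, 5457 bases away (ENSMUSG00000039323, chr1:72824503-72852474, plus strand), ran from 99.4 to 150 TPM in set 1 and from 184 to 261 TPM in set 2. In the earlier animals it was 99.4 and 120 TPM in WT against 138 and 134 TPM in G234D, and in the later animals 150 and 120 TPM in WT against 110 and 108 TPM in G234D. The order of the genotypes was thus opposite in the earlier and the later animals, without overlap in either, as was so for 14.3% of the genes tested.

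Igfbp4, a binding protein that inhibits IGF action until PAPP-A cleaves it (ENSMUSG00000017493, chr11:99041244-99054392, plus strand), was the most variable member. Its level was 80.0, 69.8, 39.6 and 64.4 TPM in W1 to W4 and 63.3, 69.7, 141 and 65.6 TPM in M1 to M4. In set 2 its level was 122 and 92.3 TPM in W5 and W6 and 125, 74.6 and 190 TPM in M5 to M7. The highest libraries of each set, M3 and M7, were G234D, and the genotypes overlapped in both sets, with M6 the lowest library of set 2. The difference over both sets was 0.31 (SE 0.26, limma, adjusted p = 0.915).

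Igfbp6, which prefers IGF2 over IGF1 (ENSMUSG00000023046, chr15:102144362-102149511, plus strand), stood at 107, 86.1, 95.2 and 89.9 TPM in W1 to W4 and at 97.3, 86.6, 145 and 115 TPM in M1 to M4. M3 and M4 were above all other libraries of set 1, and M1 and M2 lay within the WT range. In set 2 it ran from 104 to 126 TPM with the WT values inside the G234D range. Over both sets the difference was 0.16 (SE 0.10, limma, adjusted p = 0.885), and 0.28 without M1 and M2 (adjusted p = 0.539). Igfbp7, a low-affinity relative of the family found around vessels and in connective tissue (ENSMUSG00000036256, chr5:77349240-77408041, minus strand), ran from 1210 to 1487 TPM in set 1 and from 1630 to 1910 TPM in set 2. Both WT cultures of set 2, at 1807 and 1910 TPM, were above M5 to M7, at 1630, 1798 and 1696 TPM, a difference of −0.12 (SE 0.06, limma, adjusted p = 0.774). Igfbp7 overlaps Polr2b on the opposite strand, which ran from 48.1 to 60.8 TPM, and no source used here says whether the counting used strand.

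Tested across all genes, no IGF axis member passed the threshold for genotype, an adjusted p under 0.05 in limma, over both sets, in set 1 or in set 2. Over both sets 0 of 10 members were called, where 0 of 11942 genes (0%) were, and 1 member had an unadjusted p under 0.05, against 6.44% of all genes. That member was Igfbp3, with a difference of 0.32 (SE 0.10, unadjusted p = 0.00515, adjusted p = 0.742), and 6 of the 7 G234D cultures were above the WT mean of their set. Igfbp5 followed at −0.40 (SE 0.20, adjusted p = 0.833), with 5 of 7 G234D cultures below the WT mean of their set, and at −0.15 without M1 and M2. This order is that of the main fit, which had no term for the animal group. With that term 3 members had an unadjusted p under 0.05, with Igf2r first, then Igfbp3 and Igfbp5. With the replicate block 2 members had, Igf2r ahead of Igfbp3. No member was called in either fit. In the main fit the Igf2r difference fell from 0.23 to 0.04 without M1 and M2. In the main fit over both sets the 95% intervals of 7 members lay within a 1.5-fold change in either direction, and those of Igf2, Igfbp4 and Igfbp5 did not. In set 1 alone 5 members lay within it. Igfbp3 (0.27 to 0.74) and Igf2r (−0.23 to 0.71) were outside there as well.

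In set 1 alone 0 of 10 members were called, where 0 of 11905 genes (0%) were, and 3 members had an unadjusted p under 0.05, against 6.06% of all genes. These were Igfbp3 at 0.51 (SE 0.10, unadjusted p = 0.000828, adjusted p = 0.487 in limma), Igf2 at 0.63 and Igfbp5 at −0.69. Igfbp3 was the member whose groups did not overlap in set 1, as was so for 4.15% of all genes, and its difference was 0.65 without M1 and M2 (adjusted p = 0.0550). In set 2 alone 0 of 10 members were called, where 0.00829% of 12060 genes were, and Igf2r was the 1 member with an unadjusted p under 0.05, against 6.48% of genes. Igf2r and Igfbp7 did not overlap between the genotypes of set 2, which with 2 against 3 cultures held for 23.6% of all genes. The 10 members had a median absolute difference of 0.20 (all genes tested: 0.05) when the sets were joined, 0.22 (0.06) for set 1 and 0.10 (0.07) for set 2. These medians do not allow for the spread between cultures. With the sets joined the SE of the members ran from 0.05 for Igfbp7 to 0.26 for Igfbp4, against a median of 0.06 over all genes.

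**Figure D3:**
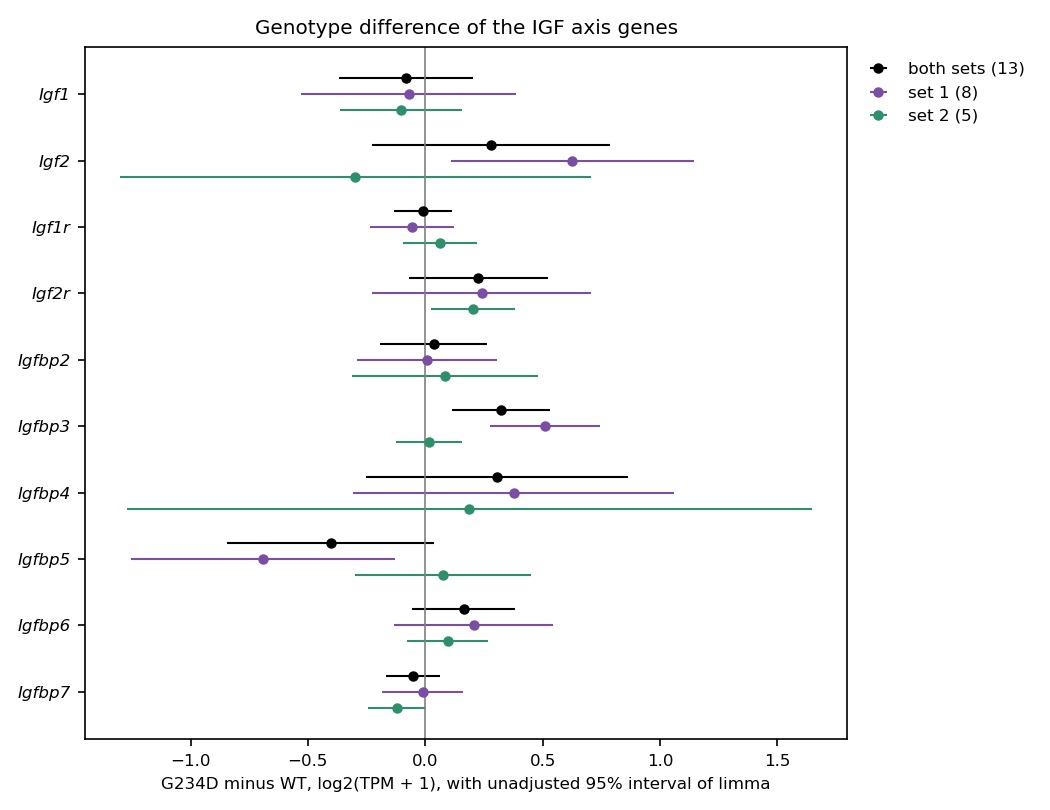
Difference G234D minus WT on the log2(TPM + 1) scale (horizontal axis) for each of the 10 genes (vertical axis) over both sets (black, 13 cultures), in set 1 (purple, 8) and in set 2 (green, 5). Bars are unadjusted 95% intervals from limma; Igfbp3 lies at 0.51 in set 1 and 0.02 in set 2, and Igfbp5 at −0.69 and 0.08.

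The genotype difference of set 2 was then compared with that of set 1 in a single fit. No member was called for this interaction (0% of 11942 genes were), and 2 members had an unadjusted p under 0.05, against 5.79% of genes. Igfbp3 gave −0.49 (SE 0.15, limma, unadjusted p = 0.00598, adjusted p = 0.840) and Igf2 gave −0.93 (SE 0.41, unadjusted p = 0.0460, adjusted p = 0.858). Igfbp5 gave 0.77 (SE 0.37, adjusted p = 0.869). Without M1 and M2 the interaction was −0.64 for Igfbp3 (adjusted p = 0.0791), −0.70 for Igf2 (adjusted p = 0.549) and 0.42 for Igfbp5 (adjusted p = 0.624). Set 2 was above set 1 without overlap for 3 members, Igfbp2, Igfbp3 and Igfbp7, and 17.2% of all genes differed between the sets in this way in either direction. The sets were sampled apart and that contrast was not tested.

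Within set 1 the group of animals was compared, later minus earlier, with genotype in the fit. Igf2r was the 1 member called, among 850 of 11905 genes (7.14%), and it was lower in the later animals by 0.51 on the log2 scale (−0.51, SE 0.10, limma, adjusted p = 0.0272). Its groups did not overlap, as was so for 15.5% of all genes. The call was lost without M1 and M2 together, where the difference was −0.32 (adjusted p = 0.344). Left out singly, W1, M1, M2 and M3 each ended the call as well, at adjusted p = 0.0518, 0.0703, 0.102 and 0.0514, and so did testing all genes with no filter on low TPM (adjusted p = 0.0508). At an unadjusted p under 0.05 there were 3 members, against 26.7% of all genes: Igf2r, Igf1 at 0.46 (SE 0.14, adjusted p = 0.0703) and Igfbp5 at 0.55 (SE 0.16, adjusted p = 0.0759). Without W2 both Igf1 and Igfbp5 were called too, at 0.60 and 0.68, and without M1 and M2 they were at 0.22 (adjusted p = 0.695) and 0.42 (adjusted p = 0.650). The 12 macrophage and leukocyte markers summed to 40.5 to 225 TPM in the earlier and 36.7 to 49.5 TPM in the later animals, and 1 of 9 tested was called lower in the later ones. The 7 adipocyte markers summed to 46.1 to 53.5 TPM and 74.0 to 141 TPM, and 2 of 3 tested were called higher. The 7 pericyte and smooth muscle markers summed to 244 to 299 TPM and 160 to 225 TPM, and 3 of 6 tested were called lower. The 14 skeletal muscle markers summed to 148 to 491 TPM and 74.7 to 186 TPM, with 1 of 11 tested called lower, and 2 of 12 fibroblast markers were called higher. The part of these cells in the differences of Igf2r, Igf1 and Igfbp5 was not tested.

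The differences within the earlier and the later animals came from 1 fit over the 8 libraries of set 1. Their SE and p thus use the pooled spread of that fit. Within the earlier animals Igf2r was higher in G234D by 0.43 (SE 0.10, limma, adjusted p = 0.0502), just outside the threshold, and 0 of 10 members were called where 3.92% of genes were. Igfbp5 was at −0.83 (adjusted p = 0.125) and Igf2 at 0.73 (adjusted p = 0.269) in the same animals. Of the markers of other cell types, 6 of 11 tested skeletal muscle genes, 6 of 8 Schwann and melanocyte genes and 2 of 9 macrophage and leukocyte genes were called higher in M1 and M2 than in W1 and W2. Of 12 fibroblast markers 1 was called lower there and 0 higher. At an unadjusted p under 0.05, 6 had a lower and 2 a higher level. Myod1, Myog and Sox10 were above 0 in all 13 libraries. The part of these cells in the differences of Igf2r, Igf2 and Igfbp5 was not tested.

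Within the later animals Igfbp3 was the 1 member called, among 0.269% of genes. Igfbp3 was higher in G234D by 0.72 (SE 0.10, 1.65-fold on the log2(TPM + 1) scale, limma, adjusted p = 0.0404). This call was lost with no filter on low TPM (adjusted p = 0.140), with median-of-ratios scaling (0.0578), with quantile normalization (0.0571) and when any of W1, W2, M1, M2, W3 or W4 was left out, with a highest adjusted p of 0.147. The difference ran from 0.59 to 0.85 when W3, W4, M3 or M4 was left out, each leaving 1 culture of a genotype in these animals. Leaving out W1, W2, M1 or M2 cannot move the difference, which stayed at 0.72. Igfbp6 was at 0.47 (adjusted p = 0.232), Igfbp4 at 0.92 (adjusted p = 0.463) and Igfbp5 at −0.55 (adjusted p = 0.434). The 7 adipocyte markers summed to 133 and 141 TPM in M3 and M4 against 87.5 and 74.0 TPM in W3 and W4. Adipoq was at most at 0.16 TPM. Muscle markers were lower in G234D, at 125 and 74.7 TPM in M3 and M4 against 136 and 186 TPM in W3 and W4. Schwann and melanocyte markers were higher, at 51.5 and 38.9 TPM against 32.2 and 33.4 TPM. So were macrophage and leukocyte markers, at 49.5 and 49.0 TPM against 36.7 and 39.8 TPM, though 3 of 9 tested were lower. Pericyte and smooth muscle markers were lower, at 160 and 164 TPM against 225 and 199 TPM. Of the tested markers 1 of 3 adipocyte genes was called higher. Of 11 muscle, 8 Schwann and melanocyte, 9 macrophage and leukocyte and 6 pericyte and smooth muscle genes 0 were called. In these animals the genotypes did not overlap for 39.7% of all genes. The part of these cells in the Igfbp3 difference was not tested.

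The test of whether the genotype difference itself differed between the later and the earlier animals called 0 of 10 members, where 2.81% of genes were called, and 5 members had an unadjusted p under 0.05, against 20.1% of genes. Igfbp2 gave −0.62 (SE 0.16, limma, adjusted p = 0.0836), Igfbp6 gave 0.54 (adjusted p = 0.175), Igfbp3 gave 0.42 (adjusted p = 0.155), Igf2r gave −0.38 (adjusted p = 0.170) and Igf1r gave −0.27 (adjusted p = 0.220). Without M3 Igf2r passed the threshold at −0.54 (adjusted p = 0.0110). Igfbp3 thus differed in the same direction in both groups of animals, by 0.30 in the earlier and 0.72 in the later, while Igfbp2 differed in opposite directions, by 0.32 and −0.30.

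**Figure D4:**
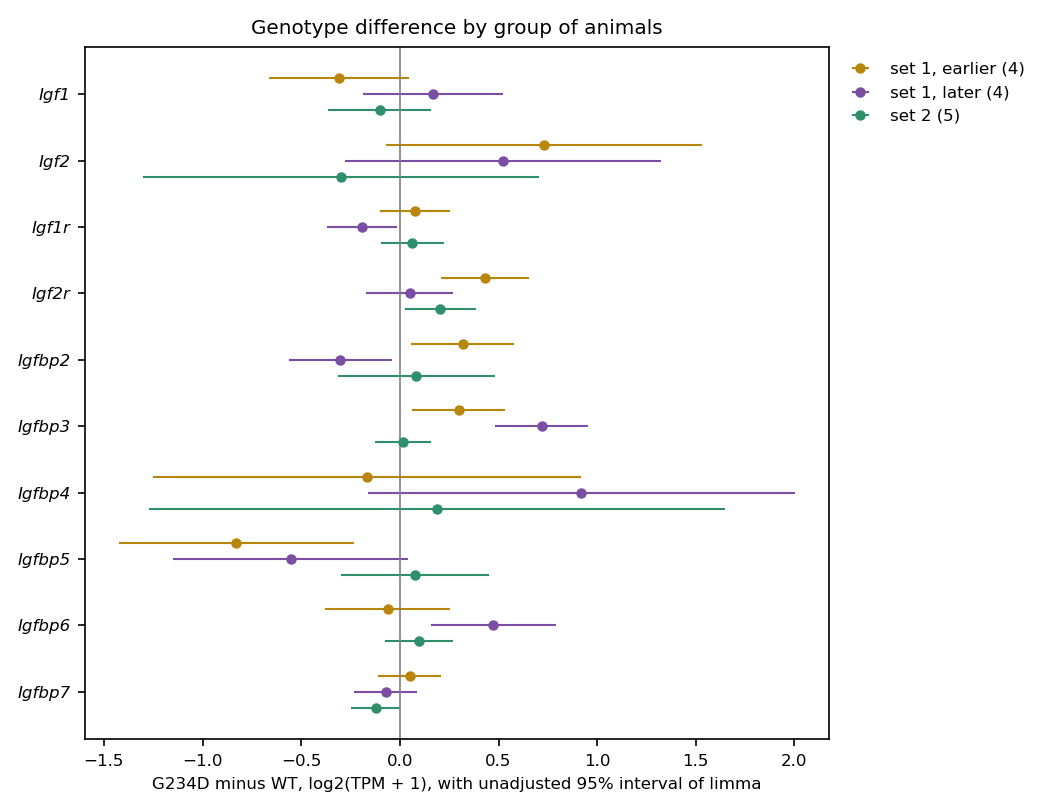
Difference G234D minus WT on the log2(TPM + 1) scale (horizontal axis) for each of the 10 genes (vertical axis) in the earlier animals of set 1 (gold, 4 cultures), the later animals of set 1 (purple, 4) and set 2 (green, 5). Bars are unadjusted 95% intervals from limma; Igfbp3 lies at 0.30, 0.72 and 0.02 in the 3 groups of animals and Igfbp2 at 0.32, −0.30 and 0.08.

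The make-up of the binding protein transcripts was compared by library. Igfbp5 and Igfbp7 together held 80.9% to 91.7% of the summed TPM of the 6 binding proteins, and Igfbp3 held 0.869% to 2.38%. In set 1 Igfbp5 took 41.4%, 48.7%, 54.6% and 51.9% in W1 to W4 and 29.0%, 32.4%, 39.1% and 47.8% in M1 to M4. Igfbp7 was the larger of the pair in W1, M1, M2 and M3 of set 1 and in all 5 libraries of set 2. The ratio of Igfbp5 to Igfbp3 combined the opposite shifts of set 1, at 28.5, 44.0, 62.8 and 42.8 in W1 to W4 and 14.9, 17.4, 19.2 and 23.5 in M1 to M4. The genotypes did not overlap in this ratio in set 1. It was chosen with those values known, and no test is given. In set 2 the ratio was 16.5 and 12.7 in W5 and W6 and 15.7, 17.5 and 12.5 in M5 to M7, so all 5 libraries of set 2, WT included, lay below every WT library of set 1. The summed binding protein level was 3370 ± 391 TPM in WT and 2801 ± 315 TPM in G234D of set 1 (SD, n = 4 each), with overlap, and 3472 ± 121 TPM (SD, n = 2) and 3429 ± 201 TPM (SD, n = 3) in set 2. TPM of Igf2r exceeded those of Igf1r by a ratio of 4.53 to 7.42, highest in M1 and M2.

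**Figure D5:**
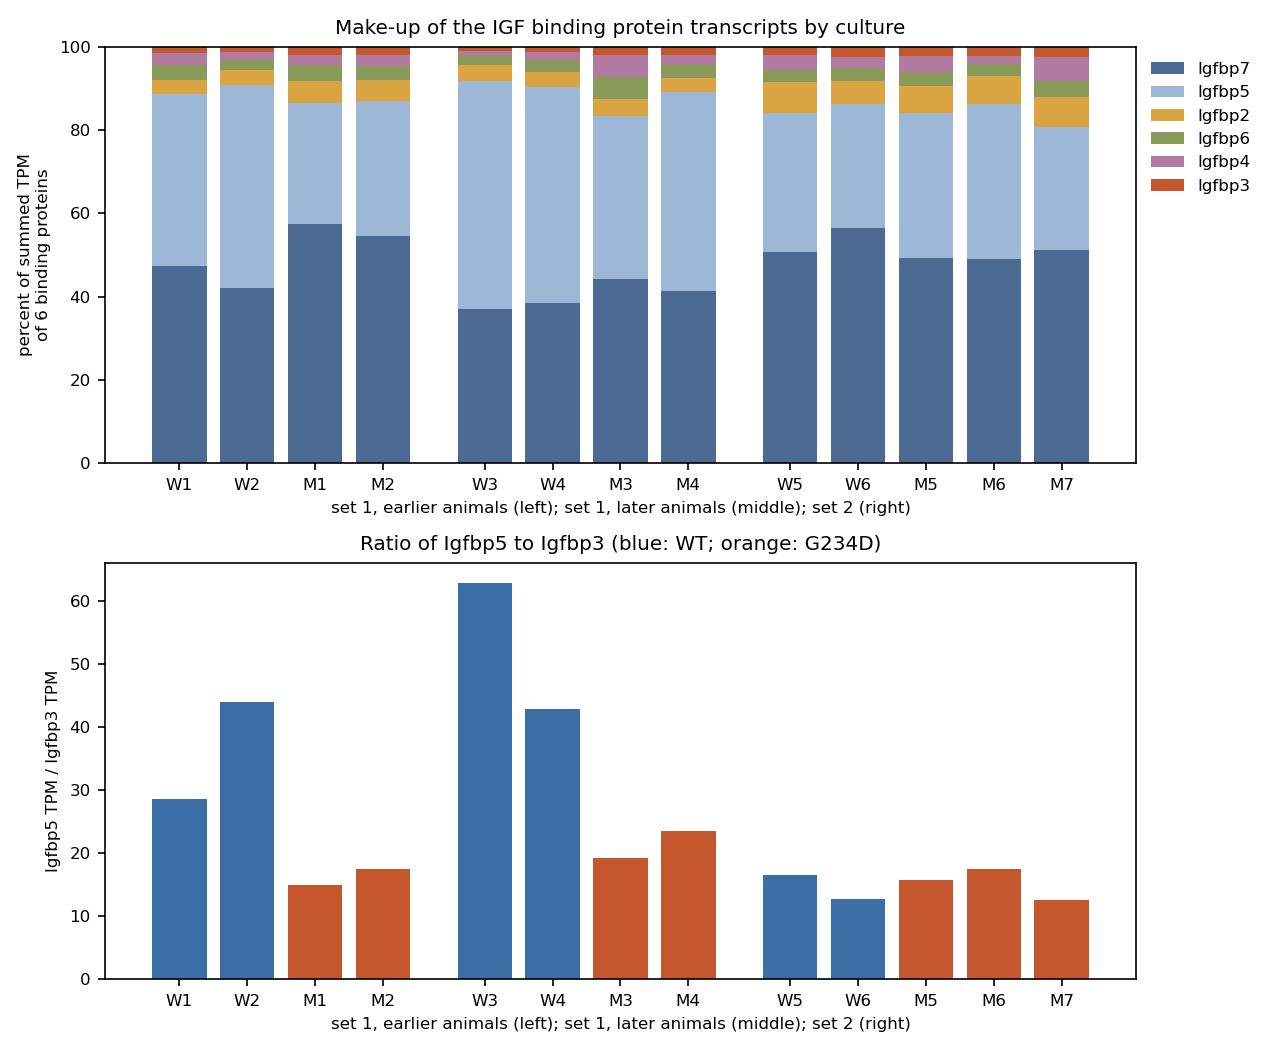
Upper panel: percent of the summed TPM of the 6 binding proteins (vertical axis) held by each of them in every culture (horizontal axis). Lower panel: TPM of Igfbp5 divided by TPM of Igfbp3, with WT in blue and G234D in orange; set 1 runs from 28.5 to 62.8 in WT and from 14.9 to 23.5 in G234D, and set 2 from 12.5 to 17.5.

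Other genes of the axis were taken from 7 lists. Of the rest of the family, Igfbp1 and the insulin gene Ins2 were listed at 0 in every library, and Igfals and Igfbpl1 stayed at or below 0.11 TPM. The insulin receptor gene Insr, at 9.91 to 16.0 TPM, gave a genotype difference of 0.01 over both sets (SE 0.06, limma, adjusted p = 0.984). H19 and Igf2os were not analysed here. Of 81 list genes tested over both sets, 0 were called for genotype, and 7.41% had an unadjusted p under 0.05 against 6.44% of all genes. Among the 7 tested genes of binding protein proteolysis the smallest p values belonged to Stc2 and Stc1, secreted inhibitors of PAPP-A and its relatives, at 0.42 (SE 0.14, limma, adjusted p = 0.742) and 0.34 (SE 0.15, adjusted p = 0.765). Pappa, the protease that cleaves IGFBP4, was at 0.23 (adjusted p = 0.902). In the PI3K-AKT list of 32 tested genes, Eif4ebp1, a translation repressor under mTOR, was at −0.08 (adjusted p = 0.742) and Irs2, an adaptor of the receptor, at 0.19 (adjusted p = 0.742). Furin, a protease that matures IGF precursors and their receptor, was at −0.12 (adjusted p = 0.742), and Ghr, the growth hormone receptor, at 0.15 (adjusted p = 0.742).

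Between the groups of animals of set 1 the same lists held calls. In later minus earlier animals 5 of 81 tested list genes rose and 9 fell, 17.3% against 7.14% of all genes. In the PI3K-AKT list 1 of 32 rose and 4 fell, among them the adaptor Irs1 at −0.46 (SE 0.09, limma, adjusted p = 0.0268). In the list of growth hormone control 2 of 9 rose, Jak2, the kinase of the growth hormone receptor, at 0.77 (adjusted p = 0.0185) and the transcription factor gene Cebpb at 0.34 (adjusted p = 0.0123). In the RAS-ERK list 2 of 15 rose, the feedback inhibitors Dusp6 at 0.34 (adjusted p = 0.0318) and Spry2 at 0.27 (adjusted p = 0.0366). Pappa, at −0.64 (adjusted p = 0.0231), was the 1 of 7 genes of proteolysis that fell, and none rose. Igf2bp1, a binder of Igf2 mRNA, at −0.39 (adjusted p = 0.0209) and the chaperone gene Hsp90b1 at −0.22 (adjusted p = 0.0443) were the 2 of 7 that fell in their list. Of 11 tested imprinted growth genes 2 fell, Nnat at −1.18 (adjusted p = 0.0100) and Peg10 at −0.40 (adjusted p = 0.0356). All 14 called genes kept their direction without M1 and M2, but 1 of them, Nnat at −0.88 (adjusted p = 0.0413), was still called, among 15 genes of the whole table.

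The genes whose levels moved most like a member were found by Pearson's r of log2(TPM + 1) over the 13 libraries after the mean of each of the 3 groups of animals had been taken out. These values share their libraries and are descriptions. The genes were picked as the highest among 11942 tested, and the r to be met by chance in such a search was not worked out. Genotype was not taken out, so differences between the genotypes, those of M1 and M2 included, remain in every r given here. Closest to Igfbp5 were Rap1gap (r = 0.95), which encodes a GTPase-activating protein of Rap1, and Rnpep (r = 0.94), an aminopeptidase gene. Closest to Igf2 were Rtl8c (r = 0.94), a gene derived from a retrotransposon, Pigu (r = 0.92), a gene of GPI anchor transfer, and Mgp (r = 0.91), the matrix Gla protein gene. Snx8 (r = 0.92), a sorting nexin gene, Crlf2 (r = 0.89), a cytokine receptor gene, and Alkbh3 (r = 0.86), a gene of alkylation repair, came closest to Igfbp3. For Igf1 the closest were Sema3c (r = 0.87), a secreted semaphorin gene, Atg14 (r = 0.87), an autophagy gene, and Zdhhc6 (r = 0.85), a palmitoyltransferase gene. Next, the 2 libraries where the member lay farthest from the mean of its group of animals were left out. Without them r fell to 0.67 for Crlf2 and 0.64 for Alkbh3 and stayed at 0.73 or more for the others. Among the members, measured in the same way, Igfbp4 and Igfbp6 moved together (r = 0.79), and Igf2 and Igfbp5 moved apart (r = −0.79), as did Igfbp4 and Igfbp7 (r = −0.76) and Igf2r and Igfbp5 (r = −0.70).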

How the data were processed

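Values were TPM per gene for each of 13 libraries, made by the authors and deposited as 1 table per library, with the unit per the file headers; each library summed to 1000000 over the same 25655 genes. Total RNA was made into strand-specific libraries, per the labels' protocols. The genome build mm10 is named in the submitters' processing notes, and the sources used here do not name the aligner, counting tool or annotation. Depth is unknown, so no counting interval is given. Gene positions came from GENCODE M21 on mm10 and promoter sequences from RefSeq on GRCm38.p6, where all 10 members matched.

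Samples were grouped by genotype and set from the labels, and set 1 also by the animal numbers in the titles. log2(TPM + 1) was fitted with limma 3.58.1 in R 4.3.3 (mean-variance trend, robust empirical Bayes). The filter asked for 1 TPM or more in 6 libraries for both sets, 4 for set 1 and 2 for set 2. The p values were adjusted by Benjamini-Hochberg over all genes tested and called under 0.05. The fit over both sets had the set as a term, and the main genotype fits had no term for the animal group. P values measure the spread between cultures, each from its own mouse. The script was tested on simulated data. Alternatives were no filter, a filter of 10 TPM, a pseudocount of 0.1, no robust step, median-of-ratios scaling, quantile normalization, a replicate block, the animal group as a term, no set term, and leaving out each library or M1 and M2 together. Leaving out M1 and M2 in the comparison of animal groups, and the alternatives within the earlier and the later animals, were added after seeing the data.

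Named genes were all 10 members, from each list at most 4 genes with the smallest p over both sets and 2 in later minus earlier animals, and the 3 genes most like Igf1, Igf2, Igfbp3 and Igfbp5. Igfbp1, Ins2, Igfals, Igfbpl1, Fbn1, Gm49394, Polr2b and the cell type markers are named outside that rule. A few genes chosen by it are not reported here. The members, lists and tests were chosen with earlier results of these data known. Replicate numbers come from the labels: deviations from the group means of same-numbered cultures correlated at 0.314, 0.236, 0.244 and 0.214 in set 1, all above 0.1, and by that limit were taken to pair them. Cultures of the same animal group with different numbers correlated as well (W1 with M2 at 0.397, W2 with M1 at 0.189, W3 with M4 at 0.440, W4 with M3 at 0.0885), so the numbers cannot be told apart from the animal group. The correlations were −0.155 and 0.0138 in set 2, and those numbers were not taken as pairs.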

Additional observations from a re-analysis of the deposited data

Results flagged for a closer look

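Igfbp4 in culture M3 stood at 141.4 TPM, far above the other G234D cultures of set 1, with a gap to the nearest of 0.917 of the range of the group. Of 30 groups of 4 or 5 values examined in this way this was the 1 that stood out, and chance marks about 1 in 20. For Igf1, Igfbp2 and Igfbp4 the genotypes lay on opposite sides in the earlier and the later animals, without overlap in either, as was so for 14.3% of the genes tested; for Igfbp4 of the earlier animals the nearest cultures, W2 and M2, stood at 69.8 and 69.7 TPM. The difference between the differences, later minus earlier, was 0.48 for Igf1 (SE 0.22, limma, adjusted p = 0.276), −0.62 for Igfbp2 (SE 0.16, adjusted p = 0.0836) and 1.09 for Igfbp4 (SE 0.59, adjusted p = 0.394), so none of these passed the threshold.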

How the results depend on the processing

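Over both sets and in set 1 the count of members called for genotype was 0 under every alternative run, the replicate block (0 called) included. The replicate block changed a call in set 2 alone, where its count was 1: Igf2 at −0.44 (adjusted p = 0.0370), with numbers that do not pair those cultures, and Igfbp3 turned to −0.0021 and Igfbp4 to −0.13. Other signs turned as follows. Without M1 and M2 Igf1 was 0.097 and Igfbp2 −0.041 over both sets, and Igf1 0.28, Igf2r −0.11 and Igfbp2 −0.15 in set 1. Igfbp7 of set 1 was 0.015 with quantile normalization, and Igfbp3 of set 2 −0.015 with median-of-ratios scaling. Leaving out each library gave ranges that crossed 0 over both sets for Igf1r (−0.039 to 0.036) and Igfbp2 (−0.041 to 0.0997); in set 1 for Igf1 (−0.20 to 0.058), Igf1r (−0.11 to 0.019), Igfbp2 (−0.086 to 0.11) and Igfbp7 (−0.052 to 0.047); and in set 2 for Igf2 (−0.68 to 0.081), Igfbp2 (−0.17 to 0.34), Igfbp3 (−0.056 to 0.088), Igfbp4 (−0.13 to 0.53) and Igfbp5 (−0.041 to 0.19). The count of later minus earlier animals was 0 with no filter and 0 without M1 and M2, and 0 to 3 with each library left out. Within the earlier animals it was 1 (Igf2r) with a filter of 10 TPM, with no robust step and with median-of-ratios scaling, and 0 to 1 with libraries left out. In the later animals it was 0 with no filter, median-of-ratios scaling or quantile normalization, and 0 to 1 with libraries left out, as was the count of the animal group by genotype interaction. The cause was not tested. In all, 832 values of members kept direction and side of the threshold, 30 changed sign, 9 gained a call and 15 lost one. Unknown depth and 2 to 4 cultures a group limit the precision.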
